A study of Mus musculus with 12 samples.

Results

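The cytosolic ribosomal protein genes of the mouse left ventricle numbered 76 of the 25319 genes in the deposited read table. They were chosen by symbol and gene type alone: protein-coding genes called Rpl or Rps with a number and at most 1 letter, together with Rplp0, Rplp1, Rplp2 and Rpsa. Kinases of the Rps6k family, pseudogenes and paralogs ending in l were left out. The rule also left out 3 ribosomal proteins with other symbols, Fau and Rps3a1 among them. Of the 76 genes, 46 encode proteins of the large subunit and 30 of the small subunit, and each of them passed the filter on low counts.

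Polyadenylated RNA was sequenced from the left ventricles of male C57BL/6 mice, with 3 mice in each of 4 groups and 1 library per mouse. Surgery took place at 8 weeks of age and sampling at 12 weeks. Transverse aortic constriction (TAC) loads the ventricle with pressure by a clip on the aortic arch, and sham-operated mice underwent the procedure without the clip. Dantrolene, a ryanodine receptor inhibitor, was given by mouth at 30 mg/kg per day for 4 weeks. Sham surgery without drug is called sham control and with drug sham dantrolene. Constriction without drug is called TAC control, and constriction with drug TAC dantrolene. The comparisons address whether pressure overload shifts the transcripts of the translation machinery and whether the drug alters that shift.

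Each cytosolic ribosome holds a single copy of most of these proteins, and their genes are known for coordinated expression. Their mRNAs begin with a pyrimidine tract at the 5′ end, the TOP motif, through which mTOR signalling controls their translation. Ribosome number limits protein synthesis in growing heart muscle, and cardiac hypertrophy is known for increased ribosome production.

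Promoters are shown because the family moved largely together across libraries. Rps19 and Rpl27a followed its common level closely, and Rpl4, Rpl5 and Rpl23 stood apart from it. Rps18 and Rps6, in the middle of the members by this measure, are shown as well-known members whose promoters hold CCGGAAG. RefSeq sequence (GRCm38.p6) runs 5′ to 3′ on the gene's strand from 120 bases before to 30 after the annotated start. Capitals mark CTCTTTC or CTTTTC, which resemble the pyrimidine tract of TOP mRNAs, or CCGGAAG, the core bound by ETS factors, searched on either strand. Matches not wholly within the printed stretch are unmarked. In the longer 300-base window counted below, Rps19 also held CTCTTTC and Rpl27a also held CCGGAAG.
Rps19 (chr7:24884472-24884621, plus strand): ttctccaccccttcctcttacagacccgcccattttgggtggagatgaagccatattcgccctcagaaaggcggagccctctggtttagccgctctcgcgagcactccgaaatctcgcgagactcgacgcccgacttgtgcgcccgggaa
Rpl27a (chr7:109519075-109519224, plus strand): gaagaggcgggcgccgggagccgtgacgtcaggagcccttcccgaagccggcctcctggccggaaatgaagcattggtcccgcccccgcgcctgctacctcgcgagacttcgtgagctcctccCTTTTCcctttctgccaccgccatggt
Rps18 (chr17:33955636-33955785, minus strand): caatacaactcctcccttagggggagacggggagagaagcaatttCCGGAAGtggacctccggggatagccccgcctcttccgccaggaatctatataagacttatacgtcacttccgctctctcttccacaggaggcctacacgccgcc
Rps6 (chr4:86857338-86857487, minus strand): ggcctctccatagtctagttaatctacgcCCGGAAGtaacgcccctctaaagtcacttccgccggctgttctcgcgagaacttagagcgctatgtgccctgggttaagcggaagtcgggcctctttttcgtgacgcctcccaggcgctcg
Rpl4 (chr9:64173267-64173416, plus strand): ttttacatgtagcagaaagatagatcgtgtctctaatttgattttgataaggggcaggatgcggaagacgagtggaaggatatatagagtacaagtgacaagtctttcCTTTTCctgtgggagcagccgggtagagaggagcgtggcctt
Rpl5 (chr5:107900408-107900557, plus strand): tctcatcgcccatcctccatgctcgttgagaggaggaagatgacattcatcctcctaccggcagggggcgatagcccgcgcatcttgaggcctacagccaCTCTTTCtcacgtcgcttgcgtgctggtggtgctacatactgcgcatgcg
Rpl23 (chr11:97782410-97782559, minus strand): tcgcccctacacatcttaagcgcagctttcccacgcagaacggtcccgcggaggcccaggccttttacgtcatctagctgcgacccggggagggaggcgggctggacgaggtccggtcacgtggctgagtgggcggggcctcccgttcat

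RefSeq promoters were matched for 56 of the 76 members and compared with all 27025 promoters of the same 300-base window, which reaches from 250 bases before to 50 after the start. CCGGAAG, on either strand, was in 22 of the 56 member promoters (39.3%) and in 9.14% of all promoters. CTCTTTC was in 16 of the 56 (28.6%) and in 8.06% of all. Within 20 bases before to 30 after the start, CTCTTTC was in 7 of the 56 (12.5%), all on the sense strand, beside 1.23% of all promoters on either strand. The shorter tract CTTTTC differed less, in 14 of the 56 beside 21.8% of all promoters. AAGATGGC, the core bound by Yy1, was in 5 of the 56 (8.93%) and in 2.87% of all, and GGGCGG, a GC box, in 33 (58.9%) and 35.9%. The motifs share no full match with each other, and these matches describe letters in a window only.

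Library totals ran from 25766378 to 38363106 reads, and the lowest count of any member in any library was 2567, so counting error was small beside the spread between mice. The 14 cardiomyocyte markers summed to 99833 CPM (counts scaled to library size by TMM normalisation) or more in each library. Nppa and Acta1, which hypertrophy raises, had their lowest TAC control value (531 and 887 CPM) above every other group's highest (477 and 343 CPM). TAC dantrolene mice, which had the same surgery, had 112 to 363 CPM of Nppa and 146 to 312 CPM of Acta1, beside 196 to 477 and 232 to 343 CPM in the sham groups. For Nppa the separation of TAC control 1 held only after TMM scaling: its FPKM (fragments per kilobase of transcript, scaled to library size) was 377, below 467 in sham control 3 and 449.5 in TAC dantrolene 2. On the first principal component of all genes, members included, the libraries TAC control 1, TAC dantrolene 1, sham dantrolene 3 and sham control 3 scored 34.7 to 85.6, and the other 8 libraries -50.7 to -22.7. These 4 libraries also had the highest level of ribosomal protein transcripts in their groups, so each comparison is given with them and without them.

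Ribosomal protein genes took 5.16%, 4.44% and 6.34% of all reads in sham control mice 1 to 3. The share was 4.50%, 5.43% and 8.40% in sham dantrolene mice. It was 9.65%, 5.28% and 4.80% in TAC control mice and 9.99%, 3.95% and 3.28% in TAC dantrolene mice. The highest share was thus 3.05-fold the lowest, and both were in the same group. Group means were 5.31% ± 0.956 (SD, n = 3) in sham control, 6.11% ± 2.04 (SD, n = 3) in sham dantrolene, 6.57% ± 2.67 (SD, n = 3) in TAC control and 5.74% ± 3.70 (SD, n = 3) in TAC dantrolene. All 4 groups overlapped.

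**Figure D1:**
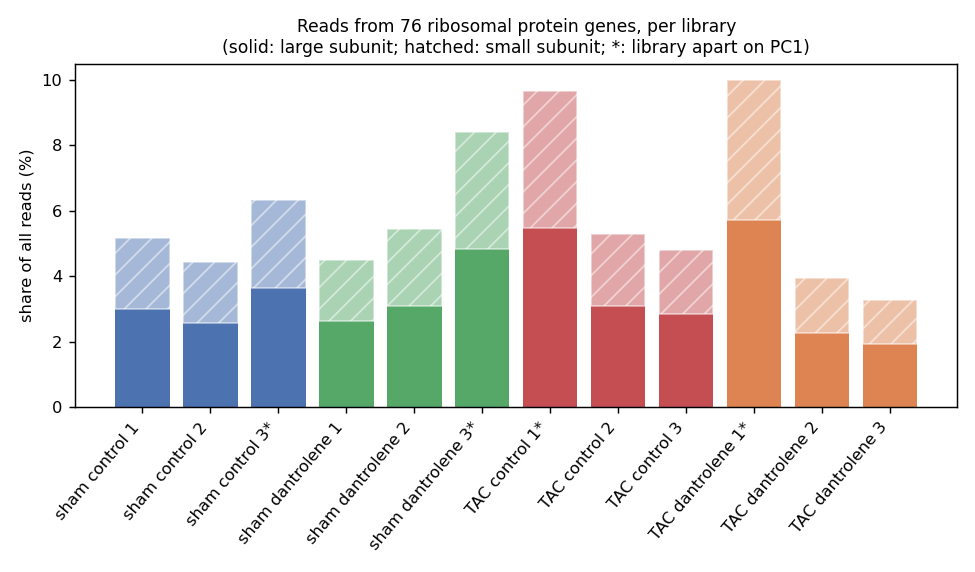
Share of all reads (%, y axis) from the 76 ribosomal protein genes in each of the 12 libraries (x axis), with the large subunit solid and the small subunit hatched. Asterisks mark the 4 libraries apart; the TAC dantrolene bars span the whole range, from 3.28% to 9.99%.

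The common level, which is the mean over members of each gene's log2 CPM minus its own mean over the 12 libraries, ranged over 2.17 log2 units. It was 1.24 in TAC dantrolene 1, 1.06 in TAC control 1, 0.64 in sham dantrolene 3 and 0.08 in sham control 3. In the other 8 libraries it lay between -0.94 and 0.04, a range of 0.98, with the lowest values in TAC dantrolene 2 (-0.94) and TAC dantrolene 3 (-0.86). The common level held 82.5% of the members' variance over the libraries. The SD of a member's log2 CPM over libraries had a median of 0.74, beside 0.53 for all 14965 genes tested. It was 0.71 for the 273 other short genes described below, so a spread of this size was not limited to members. Relative to the common level, the median SD was 0.26, and 52 of the 76 members stayed under 0.30.

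Other short transcripts moved along with the ribosomal protein genes. The 273 non-member genes with an implied length under 1000 bases (taken from the ratio of CPM to FPKM) and a mean FPKM over 20 had median deviations of 1.17 in TAC dantrolene 1 and 1.01 in TAC control 1. Their deviations were -0.77 and -0.72 in TAC dantrolene 2 and 3. The 687 genes with an implied length over 5000 bases and a mean FPKM over 5 had -0.32 and -0.22 in the first pair, and 0.36 and 0.13 in the second. The long genes did not mirror the common level in every library: they were at -0.29 in TAC control 3, where the common level was -0.11 and the short genes were at -0.18. The part of transcript length in the results on ribosomal protein genes was not tested. In bulk tissue, fewer cells of a type and less RNA per cell cannot be told apart.

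**Figure D2:**
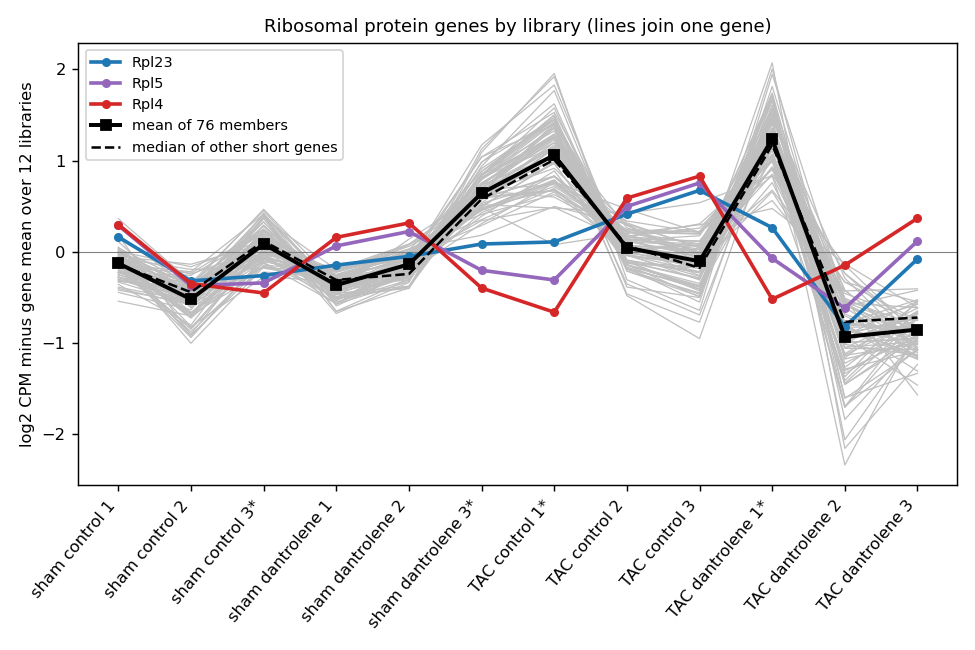
Log2 CPM of each ribosomal protein gene minus its mean over the 12 libraries (y axis) by library (x axis; asterisks mark the 4 libraries apart), with 1 grey line per gene, the mean of the 76 members in black and the median of 273 other short genes dashed. The mean runs from 1.24 in TAC dantrolene 1 to -0.94 in TAC dantrolene 2, the short genes lie close to it, and Rpl4 and Rpl5 lie below 0 in the 3 libraries with the highest mean.

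Marker genes of other cells also differed between these libraries. The 13 macrophage markers summed to 1963 CPM in TAC dantrolene 1 and to 672 and 521 CPM in TAC dantrolene 2 and 3. Over the groups, that sum ranged from 648 to 1263 CPM in sham control, 727 to 1779 in sham dantrolene, 1125 to 1721 in TAC control and 521 to 1963 in TAC dantrolene. The sum of the 6 erythroid markers tested ranged from 895 to 4375, 816 to 3268, 1803 to 8870 and 861 to 11636 CPM in the same order. The 12 fibroblast markers ranged from 2656 to 3292, 2552 to 4158, 2636 to 5965 and 3010 to 3533 CPM. The 12 endothelial markers ranged from 1736 to 2025, 2058 to 2111, 2216 to 3121 and 2023 to 2321 CPM. The 7 mesothelial markers tested reached in sum at most 3.71 CPM in sham control. They ranged from 4.11 to 11.1, 5.67 to 37.9 and 4.76 to 30.1 CPM in the other groups, with the highest sum in TAC control 1. For both of these lists TAC control did not overlap sham control. Lymphocyte markers stayed between 3.32 and 17.1 CPM in sum. Mitochondrially encoded genes took 1.71% of reads in TAC dantrolene 2 and 7.10% to 22.4% in the other libraries. The part of these differences in the results was not tested.

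Among members, levels per length ranged over 30.9-fold. The highest mean FPKM was that of Rplp1, a protein of the stalk that recruits elongation factors, at 3083, which ranked 25 among all genes. Rps2, a small-subunit protein near the mRNA entry, had 2214 and Rpl41, the shortest ribosomal protein, 2152. The lowest were Rps15a at 99.6, Rpl5 at 112 and Rps20 at 129, and 18 members exceeded 1000. The lengths implied by the deposited FPKM matched the annotated exon length within 5% for only 4 members, so the rank of single genes depends on the length used. Divided by the length of the principal GENCODE transcript, the range was 31.4-fold, with Rplp1 first and Rpl5 last.

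Without the drug, ribosomal protein transcripts were on average more abundant after TAC than after sham surgery, but no member passed the test. All 76 fold changes of TAC control over sham control were positive, from 0.18 to 1.08 on the log2 scale, with a median of 0.62 beside 0.10 for all genes, of which 57.2% were positive. In edgeR's quasi-likelihood test 0 of 76 members and 0 of 14965 genes (0%) had an adjusted p under 0.05. At an unadjusted p under 0.05 there were 0 members beside 7.93% of all genes, and DESeq2 called 0 members among 79 genes (0.528%). The groups did not overlap, with TAC control higher, for 21 of 76 members, beside 7.54% of all genes and 20.5% of the 273 short genes. The short genes had a median of 0.55. Scaled by library totals, the median of members was 0.33 beside -0.15 for all genes, with 72 members positive and 4 negative.

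Rps24, a small-subunit protein mutated in Diamond-Blackfan anaemia, had the smallest p. Its level was 529, 297 and 434 CPM in sham control and 733, 704 and 763 CPM in TAC control. All TAC control mice were above all sham control mice, including the library apart. The fold change was 0.80 (SE 0.43; edgeR adjusted p = 0.666). Rpl23, which can bind Mdm2, had 319, 228 and 238 CPM in sham control and 307, 379 and 455 CPM in TAC control. Here the groups overlapped through TAC control 1, and the fold change was 0.54 (SE 0.31; edgeR adjusted p = 0.678). Rps23, a decoding-centre protein, differed by 0.70 (SE 0.45; edgeR adjusted p = 0.711).

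Other well-known members had a different shape, with TAC control 1 alone above sham control. Rplp0, the base of the stalk and a common qPCR reference, had 1970, 1820 and 3260 CPM in sham control and 6194, 1847 and 1458 CPM in TAC control. The fold change was 0.43 (SE 0.68). Rps14, a small-subunit protein of the mRNA exit platform, had 1231, 1101 and 2322 CPM in sham control and 6969, 1449 and 1148 CPM in TAC control. Its fold change of 1.04 (SE 0.90) rested on TAC control 1 in the same way. Without TAC control 1 the median of all members was 0.14, with 51 positive and 25 negative. Without the 4 libraries apart, which leaves 2 mice per group, the median was 0.25 with 69 positive (52.1% of all genes) and 7 negative. In that fit 0 members were called among 484 genes (3.21% of 15069), and 3 members beside 24.7% of genes had an unadjusted p under 0.05. The short genes had a median of 0.24 there.

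**Figure D3:**
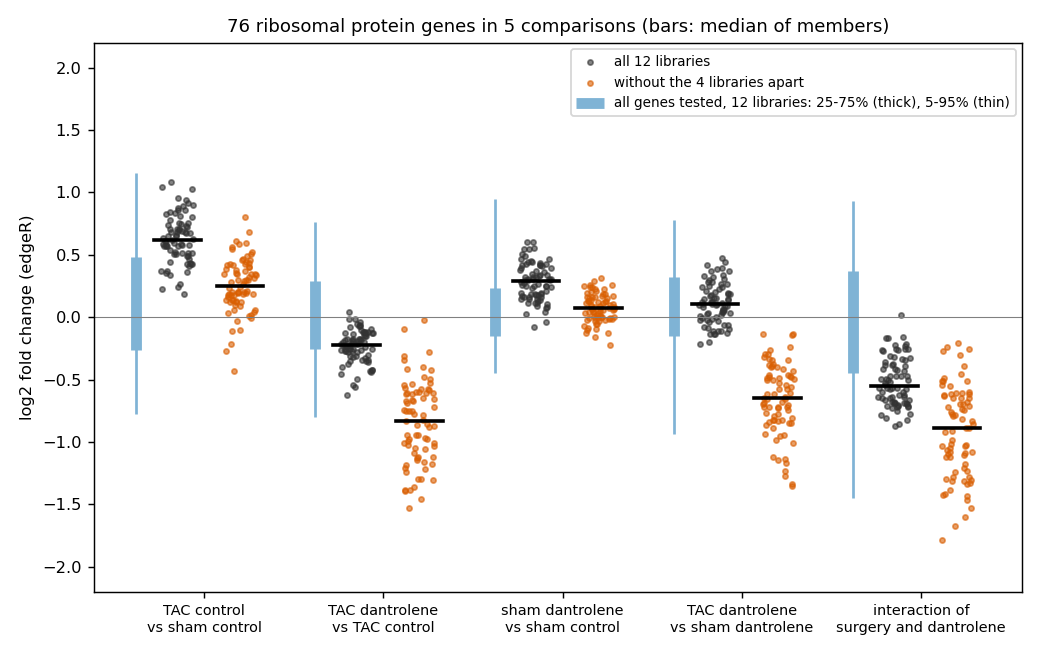
Fitted log2 fold change (y axis) of the 76 ribosomal protein genes in the 5 comparisons (x axis), with all 12 libraries (dark points) and without the 4 libraries apart (orange points); black bars are medians and blue bars the spread of all genes. The median for TAC dantrolene against TAC control moves from -0.22 to -0.83.

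In TAC mice, dantrolene came with lower average levels of ribosomal protein transcripts, and whether any member passed the test depended on the 4 libraries apart. With 12 libraries, 1 of 76 members was positive, beside 51.8% of all genes, and 75 were negative, with a median of -0.22 beside 0.02 for all genes and -0.19 for the short genes. By edgeR 0 members and 0 genes (0%) were called, and 0 members beside 3.25% of genes had an unadjusted p under 0.05. DESeq2 called 0 members among 12 genes (0.0802%). The groups overlapped for every member, beside 2.68% of all genes higher and 2.08% lower without overlap. TAC dantrolene 1 had the highest common level. Rpl4 and Rpl5 overlapped instead through low values in TAC control 1 (192 and 204 CPM). Removing TAC dantrolene 1 moved the median to -1.37, and removing TAC control 1, TAC dantrolene 2 or TAC dantrolene 3 turned it positive (0.27, 0.11 and 0.11). With the replicate number as a block it was -0.54.

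With these 4 libraries left out, the median was -0.83 and all 76 members were negative, beside 53.3% of all genes positive. In this fit of 2 mice against 2, 65 members beside 22.4% of all genes had an unadjusted p under 0.05. At an adjusted p under 0.05, 20 members fell by edgeR, and none rose. The 4 libraries left out had the highest common level in their groups, so leaving them out also removed spread of the members within groups. The p values of members in any fit without them follow in part from that choice. They describe the mice that remain and are not an independent test. Over all genes 1.53% were called lower and 3.17% in either direction. Of the 273 other short genes 41 were called (15%), each lower, with a median of -0.68, so lower calls were not limited to ribosomal protein genes. The groups did not overlap, with TAC dantrolene lower, for 71 of 76 members, beside 21.1% of all genes and 79.1% of the short genes. Macrophage markers summed to 672 and 521 CPM in the TAC dantrolene pair and to 1125 and 1265 CPM in the TAC control pair, and 4 of the 13 were called lower in the same fit. Of the 12 fibroblast markers 5 were called lower (median -0.99), and of the 12 endothelial markers 1 was. Of the 14 cardiomyocyte markers 2 were called higher and 0 lower, with 5 positive and 9 negative (median -0.27). The 6 erythroid markers tested were all negative (median -2.62), and none was called. The part of these markers in the result was not tested.

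The 20 members were 12 of the large subunit (Rpl10, Rpl24, Rpl26, Rpl27, Rpl27a, Rpl28, Rpl32, Rpl35, Rpl35a, Rpl36a, Rpl38, Rpl39) and 8 of the small subunit (among them Rps15a, Rps18, Rps21, Rps25, Rps27 and Rps29). Rps27, a zinc-finger protein of the small subunit, had 606 and 585 CPM in TAC control 2 and 3, and 218 and 263 CPM in TAC dantrolene 2 and 3. Its fold change was -1.30 (SE 0.21; edgeR adjusted p = 0.0221), but the excluded mice had 1813 CPM (TAC control 1) and 2160 CPM (TAC dantrolene 1). Rpl32, a frequent reference gene, had 752 and 601 against 276 and 317 CPM, a fold change of -1.18 (SE 0.23; edgeR adjusted p = 0.0296). Rpl39, a small protein that lines the exit tunnel, had 275 and 251 against 65.5 and 124 CPM. Its fold change was the lowest of the 20, at -1.46 (SE 0.33; edgeR adjusted p = 0.0428). Rpl38, known for its role in translating Hox mRNAs, was the member nearest the threshold, at -0.94 (SE 0.22; edgeR adjusted p = 0.0494).

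At the other end, Rps2 had 1982 and 1428 CPM in TAC control 2 and 3 and 2065 and 1314 CPM in TAC dantrolene 2 and 3. Its fold change was -0.02 (SE 0.27; edgeR adjusted p = 0.977). Rpsa, a small-subunit protein also studied as a laminin receptor, was at -0.10 (SE 0.24; edgeR adjusted p = 0.848). Rplp0 was at -0.41 (SE 0.22; edgeR adjusted p = 0.297). The members thus spread from about no difference to more than 1 log2 unit within this comparison.

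In sham-operated mice, no member passed the test for dantrolene, and the average difference rested on 1 library. With all libraries, 74 of 76 members were positive (52.5% of all genes), with a median of 0.29 beside 0.02 for all genes and 0.23 for short genes, and 0 members were called among 0 genes (0%). At an unadjusted p under 0.05 there were 0 members beside 0.715% of genes, and DESeq2 called 0 genes. Rps24 had the smallest p of the members here too, with 420, 510 and 752 CPM in sham dantrolene mice and a fold change of 0.42 (SE 0.43; edgeR adjusted p = 1). Without sham dantrolene 3, the highest sham library, the median was -0.11. The 8 other libraries gave 0.07, with 55 positive (52.2% of all genes) and 21 negative, and 0 members and 0 genes (0%) were called.

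Between TAC dantrolene and sham dantrolene mice the sign of the average difference was not stable. The median was 0.11 with TMM scaling (56 positive, 20 negative, 59.9% of all genes positive), but -0.14 with library totals (18 positive, 58 negative) -0.23 from log2(FPKM + 1) and -0.29 with the replicate number as a block. By edgeR 0 members and 0 genes (0%) were called, with 0 members beside 1.71% of genes at an unadjusted p under 0.05, and DESeq2 called 0 members among 4 genes (0.0267%). The smallest p was that of Rpl34, at 0.39 (SE 0.61; edgeR adjusted p = 1). Without TAC dantrolene 1 the median was -1.04. Leaving out the 4 libraries apart gave -0.65, with all 76 members negative and 53.4% of all genes positive. The groups did not overlap for 65 members there, lower in TAC dantrolene, beside 17.5% of all genes and 68.1% of short genes, and 49 members beside 9.93% of all genes had an unadjusted p under 0.05. After adjustment 0 members and 0 genes (0%) were called.

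The interaction asks whether the effect of dantrolene differed between TAC and sham mice. Its median over members was -0.55 with 75 negative and 1 positive (49.5% of all genes positive), beside -0.01 for all genes and -0.42 for short genes, and edgeR called 0 members and 0 genes (0%). At an unadjusted p under 0.05 there were 0 members beside 2.82% of genes, and DESeq2 called 0 members among 1 gene (0.00668%). Rpl23 had the smallest p, at -0.65 (SE 0.44; edgeR adjusted p = 1). The median was 0.0003859 without TAC control 1 and -1.68 without TAC dantrolene 1, so single mice set its size. With these 4 left out it was -0.89 with 0 positive (52% of all genes), and 0 members were called among 7 genes (0.0465%). At an unadjusted p under 0.05 there were 51 members beside 13.7% of genes in that fit, and 23 members beside 11.6% of genes with the replicate number as a block on all libraries. No member passed the adjusted threshold in any of these 3 fits.

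Behind the common level, a few members had a course of their own. Relative to the mean of all members, Rpl4, a large-subunit protein with a loop in the exit tunnel (gene at chr9:64173375-64178666, GRCm38), varied most, with an SD of 1.02 log2 units. Its relative level was -1.73 in TAC control 1, -1.76 in TAC dantrolene 1, -1.04 in sham dantrolene 3 and -0.54 in sham control 3. In the other 8 libraries it was between 0.17 and 1.22. Rpl4 took 0.148% of the reads of ribosomal protein genes in TAC control 1 and 1.35% in TAC dantrolene 3. In plain CPM it had 192 in TAC control 1 and 542 in TAC control 3, opposite to the family.

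Rpl5, which carries 5S rRNA into the ribosome and binds Mdm2 (gene at chr5:107900502-107909005), had relative levels of -1.37 in TAC control 1 and -1.31 in TAC dantrolene 1, and 0.97 in TAC dantrolene 3. Rpl23 (chr11:97777527-97782437) followed with -0.95, -0.97 and 0.78 in the same libraries. Rpl3, which reaches toward the peptidyl transferase centre, was at -0.98 and -0.76 in TAC control 1 and TAC dantrolene 1 and at 0.80 in TAC dantrolene 2. Rps14, Rpl41 and Rplp1 were opposite, at 0.90, 0.86 and 0.71 in TAC control 1. Exons of 18 members overlap a gene on the other strand, those of Rpl5 among them and those of Rpl4 and Rpl23 not, so reads of these 18 could have been split by the authors' counting.

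TAC dantrolene 2 had a pattern not shared with TAC dantrolene 3. Rps26, a protein at the mRNA exit, was at -1.41 there and at 0.00 in TAC dantrolene 3. Rpl39 was at -1.22 and -0.38 in these libraries, and Rpl31 at -1.13 and -0.08. These members reached their lowest levels in TAC dantrolene 2, and Rpl39 had the widest range of CPM of all members, 18.9-fold over the 12 libraries. Rpl14 had the narrowest in CPM, 1.99-fold. These ranges depend on the scaling. In FPKM, Rpl39 ran from 114.64 in TAC dantrolene 2 to 1203.46 in TAC dantrolene 1. Rpl7a (520.67 to 711.97 FPKM) had a narrower fold range there than Rpl14 (337.29 to 490.49 FPKM). The first component of relative levels held 64.7% of their variance and the second 23.6%.

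Rps19, another Diamond-Blackfan anaemia gene (chr7:24884371-24889806), followed the family most closely, with a relative SD of 0.09. It had 580, 491 and 738 CPM in sham control, 484, 579 and 1107 in sham dantrolene, 1505, 685 and 546 in TAC control, and 1552, 328 and 340 in TAC dantrolene. Rpl29 and Rpl27a came next. Rpl22, Rps18 and Rpl13a, often used as reference genes or studied for functions outside the ribosome, spanned 4.88-fold, 7.39-fold and 6.99-fold in CPM over the libraries. Rps6, the substrate of S6 kinase, had 641, 468 and 621 CPM in sham control and 1276, 454 and 436 CPM in TAC dantrolene. Of the 76 genes, 29 hold snoRNA genes within them (56 in all), and their relative SD had a median of 0.266, beside 0.253 for the other 47.

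**Figure D4:**
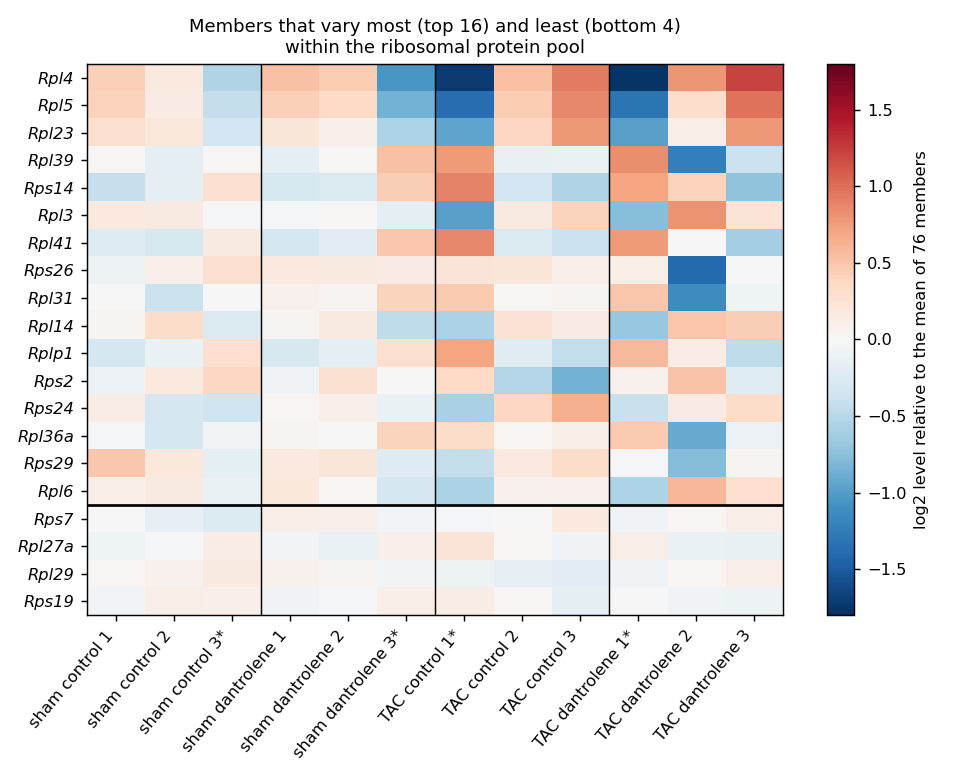
Log2 level relative to the mean of the 76 members (colour) for the 16 members that varied most and the 4 that varied least (rows) in the 12 libraries (columns; asterisks mark the 4 libraries apart). Rpl4 runs from -1.76 to 1.22, while Rps19 stays within 0.16 of 0.

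Rpl3l, the paralog that replaces Rpl3 in striated muscle, had a narrower range of TMM-scaled CPM over the libraries than any member. TMM factors ran from 0.705 in TAC dantrolene 1 to 1.25 in TAC dantrolene 2, so this ranking depends on the scaling. Rpl3l had 369, 388 and 382 CPM in sham control and 339, 341 and 313 in sham dantrolene. In TAC control it had 362, 361 and 289 CPM, and in TAC dantrolene 412, 372 and 309. Sham control lay wholly above sham dantrolene and TAC control, the other pairs of groups overlapped, and the highest library was 1.43-fold the lowest. TAC control differed from sham control by -0.17 (SE 0.24; edgeR adjusted p = 0.869) and TAC dantrolene from TAC control by 0.11 (SE 0.24; edgeR adjusted p = 1). Its mean FPKM of 191 stood beside 226 for Rpl3, both per length.

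Rps27l, a p53-induced paralog, went with the family instead, with 567 CPM in TAC control 1, 622 in TAC dantrolene 1 and 70.2 in TAC dantrolene 2. Without the 4 libraries apart it fell by 1.27 (log2) in TAC dantrolene against TAC control (edgeR adjusted p = 0.032), the only one of 8 paralogs called. Rpl22l1 ranged from 19.8 to 84.9 CPM, Rpl36al from 27.9 to 146, Rps4l from 26.0 to 64.8 and Rpl7l1 from 43.1 to 62.2. Rpl39l and Rps27rt stayed under 1.5 CPM. Of the 3 ribosomal proteins with other symbols, Fau, with a ubiquitin-like fusion to a small-subunit protein, ranged from 263 to 1351 CPM. Rps3a1 ranged from 302 to 711 CPM. Without the 4 libraries apart, 1 of these 3 was called lower in TAC dantrolene against TAC control, beside 1.53% of all genes. Paralogs are near-identical in part of their sequence, so reads may have been split between them.

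**Figure D5:**
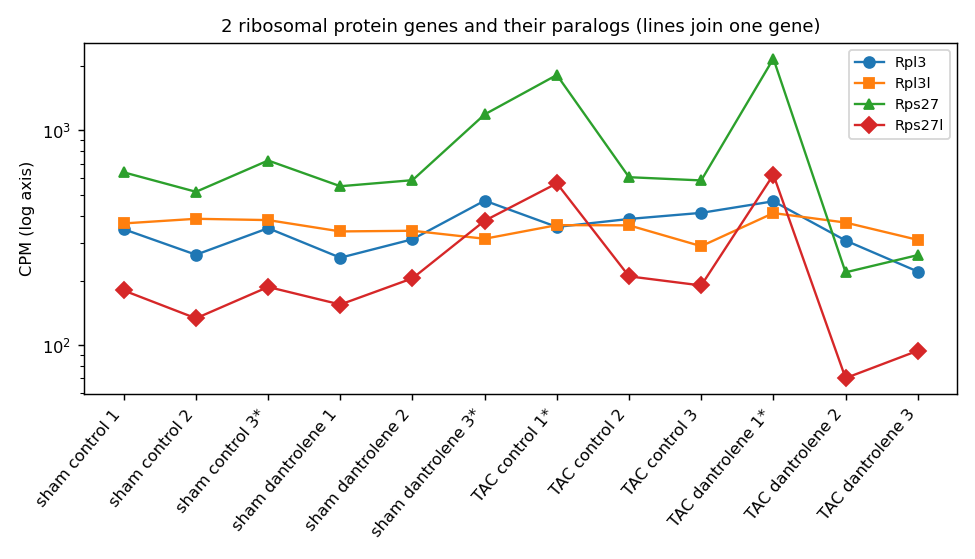
CPM on a log axis (y axis) of Rpl3 and Rps27 and of their paralogs Rpl3l and Rps27l in the 12 libraries (x axis; asterisks mark the 4 libraries apart). Rpl3l stays between 289 and 412 CPM while Rps27l runs from 70.2 to 622 CPM along with Rps27.

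Genes around the ribosome were read from lists of other translation genes, and 0 of them were called with 12 libraries in any comparison. Their signs stand beside 57.2% of all genes positive in TAC control against sham control and 51.8% in TAC dantrolene against TAC control. Of 77 mitochondrial ribosomal proteins, which translate the mitochondrial genome, 65 were positive in TAC control against sham control (median 0.33), and 57 were negative in TAC dantrolene against TAC control (median -0.09). Leaving the 4 libraries apart out, 4 of them fell in the latter comparison (median -0.32), beside the 1.53% of all genes called lower. In the same fit 1 other TOP mRNA and 1 elongation factor fell, 1 initiation factor and 1 ribosome biogenesis gene rose, and 0 regulators of mTOR were called. Of 19 other mRNAs with TOP motifs, 16 were positive (median 0.48) and then 16 negative (median -0.22), and Npm1, a nucleolar chaperone, had the smallest unadjusted p of the first comparison at a fold change of 1.22, not called. Initiation factors had 20 of 28 positive (median 0.18) and then 18 negative (median -0.09), and elongation factors 7 of 10 positive (median 0.19) and then 5 negative (median -0.05). Ribosome biogenesis genes, which make and process rRNA, had 29 of 51 positive (median 0.07) and then 20 negative (median 0.04). The 23 regulators of mTOR and TOP mRNAs had 13 positive (median 0.04) and then 11 negative (median 0.07).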

How the data were processed

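Left ventricles of 12 mice, each a separate animal, were analysed from 2 tables. One holds read counts per gene deposited by the authors, not normalised, and the other the FPKM values deposited by the authors. Per the submitters' processing notes, bcl2fastq, TopHat2 and edgeR were used with the GRCm38 genome build. Libraries were directional and sequenced for 150 nt, per the labels' protocols; the strand setting of counting is not given in the sources used here.

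Counts were filtered (filterByExpr, minimum count 10, minimum total 15), which left 14965 of 25319 genes and removed 0.0418% of reads. They were scaled by TMM and fitted with edgeR 4.0.16 (robust quasi-likelihood, R 4.3.3) as 4 group means over 12 libraries, with two-sided tests and Benjamini-Hochberg adjustment over all genes. A call is an adjusted p under 0.05, and SE is the fold change divided by the root of the F statistic. Log2 CPM used a prior count of 2. Alternatives used DESeq2 1.42.0 and limma 3.58.1. The procedure was tested on simulated data. All 76 members matched GENCODE vM21.

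Named members are those called in any comparison, the 3 with the smallest p per direction, the 3 extremes of mean FPKM and of relative variation, and a set of well-known members; further members are named as extremes after their values were seen. A few genes that the rule names are not reported here. The members, lists and the 4 libraries apart were chosen with earlier results of these data known. Replicate numbers paired libraries in part, and in the drug comparisons only, a pairing seen in the data and not stated in the labels. Correlations of same-numbered deviations were 0.556, 0.300 and 0.613 in TAC and 0.465, 0.366 and 0.672 in sham. Different-numbered pairs reached 0.221 in TAC. In sham, numbers 1 and 2 correlated with each other at 0.375 and 0.305, so these numbers were not told apart.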

Additional observations from a re-analysis of the deposited data

How the results depend on the processing

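No ribosomal protein gene was called in any comparison under another scaling, no filter, DESeq2, FPKM, the compared groups alone, or when any library was left out; the exception was TAC dantrolene against TAC control without the 4 libraries apart (20). Genes called overall in TAC control against sham control were 0 at first, 3 with no filter, 79 by DESeq2, 1 with only the groups compared and 484 without the 4 libraries apart, and 0 to 15 with each library left out. In TAC dantrolene against TAC control they were 1 (no filter), 12 (DESeq2), 478 (without the 4) and 0 to 1 with each library left out. DESeq2 called 4 in TAC dantrolene against sham dantrolene and 1 for the interaction, and 7 were called for the interaction without the 4. With each library left out, medians of members ranged from 0.14 to 0.84 (TAC control against sham control), -1.37 to 0.27 (TAC dantrolene against TAC control), -0.11 to 0.48 (sham dantrolene against sham control), -1.04 to 0.48 (TAC dantrolene against sham dantrolene) and -1.68 to 0.0003859 (interaction). The cause was not tested.

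The replicate block suits the drug comparisons only so far as the pairing by number holds. With it, medians were -0.54 and 0.23 for the drug in TAC and sham mice. They were 0.51 and -0.29 for surgery without and with drug, and -0.74 for the interaction. With the block 0 members were called and no call changed. Single members, none called, changed sign. Not all of them were near 0 in the fit of 12 libraries. For TAC dantrolene against sham dantrolene, Rpl38, Rpl34 and Rplp2 were at 0.40, 0.39 and 0.27 in that fit, above the upper quartile of members (0.23). For TAC dantrolene against TAC control, Rpsa was -0.084 with the block and -0.10 without the 4 (-1.09 to 1.02 with each library left out). For TAC dantrolene against sham dantrolene, Rpl38 was -0.19 with the block, -0.66 without the 4, and -0.10 from log2(FPKM + 1) and log2(FPKM + 0.1), while Rpl34 and Rplp2 were -0.29 and -0.14 without the 4. With each library left out these ran from -1.03 to 0.81, -0.74 to 0.84 and -0.40 to 0.60, and Rpl23 from -0.41 to 0.14. For the interaction, Rpl8 was -0.016 with DESeq2 size factors and by DESeq2, -0.085 with the block, -0.24 without the 4 and -0.0090 without mitochondrially encoded genes (-0.77 to 0.51 with each library left out). For sham dantrolene against sham control, Rpl8 ran from -0.35 to 0.15 and Rplp2 from -0.31 to 0.14.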
